A study of Arabidopsis with 4 samples.

Results

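The 7 genes described here, FCA, FPA, FLK, FY, FVE, FLD and LD, form the classical autonomous pathway of flowering in Arabidopsis, and they were chosen by their gene identifiers from the 32833 genes of the deposited table. The pathway lowers the transcript of FLC, the MADS-box repressor that delays flowering, whatever the day length. FCA, FPA and FLK bind RNA, and FY is a subunit of the machinery that cleaves and polyadenylates transcripts. In the current picture, early 3′-end formation on antisense transcripts of FLC is coupled to a chromatin step in which FLD, LD and FVE take part. Mutants in any of these genes flower late and accumulate FLC, and the laboratory accession Col-0, which lacks a working copy of the FLC activator FRIGIDA, depends on the pathway for its low FLC level.

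RNA was sequenced from whole seedlings of jmj28-2, a mutant in the Col-0 ecotype named for the JmjC-domain protein JMJ28 (n = 2 libraries), and of wild-type Col-0 (n = 2 libraries). All seedlings were 12 days old and had grown at 23 °C on medium with 1% sucrose, in days of 16 h light and 8 h dark. JMJ28 belongs to the KDM3 group of histone demethylases, and the mutant is represented by 1 allele at a position that the labels do not state. The comparison asks whether the transcripts of the FLC repressors differ when JMJ28 is mutated.

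Levels are in TPM, a transcript abundance per gene length that is scaled to a fixed total in each library, so they can be set side by side between genes. The sequencing depth of the libraries is unknown. JMJ28 (AT4G21430, named B160 in the table) had 5.45 and 5.72 TPM in jmj28-2, against 7.63 and 7.70 TPM in Col-0. The mutant libraries were the lower ones but transcript remained, and the ratio of 0.729 did not pass the test (limma adjusted p = 0.235). The shoot markers RBCS1A and LHCB1.3 lay between 18030 and 21330 TPM in all 4 libraries, with overlapping genotypes. The shoot marker CA1 had 3065 and 2999 TPM in jmj28-2, against 3506 and 3732 TPM in Col-0, a ratio of 0.838 (limma adjusted p = 0.244), and its part in the results below was not tested. The floral genes AP3 and AG and the seed storage genes CRA1 and SESA1 lay below 1 TPM. Of the root markers, PYK10 had 2077 and 1702 TPM in jmj28-2 and 1967 and 1923 TPM in Col-0, and CASP2 had 22.93 and 16.43 TPM in jmj28-2 and 26.03 and 25.16 TPM in Col-0. COBL9 had 7.30 and 4.08 TPM in jmj28-2 and 7.57 and 6.43 TPM in Col-0, so jmj28-2 replicate 2 was the lowest library for all 3 root markers.

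All 7 genes were expressed at moderate levels, and none of them passed the test for a difference between jmj28-2 and Col-0. Over the 4 libraries FVE was the most abundant at 39.5 ± 1.55 TPM, followed by FLK at 30.1 ± 1.93 TPM and FPA at 17.3 ± 0.904 TPM (SD, n = 4). FCA averaged 12.3 ± 0.449 TPM, LD 12.0 ± 0.614 TPM, FY 11.1 ± 0.819 TPM and FLD 9.63 ± 0.609 TPM. The ranges of FVE, FLK and FPA overlapped neither with each other nor with those of the remaining genes. The ranges of FCA and LD overlapped with each other and with that of FY but lay above that of FLD. The range of FY overlapped with that of FLD, although FY exceeded FLD within each of the 4 libraries. The highest mean was 4.1 times the lowest, and the means lay above those of between 40.0% (FLD) and 80.4% (FVE) of the 19764 genes tested, whose median level was 13.2 TPM.

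**Figure D1:**
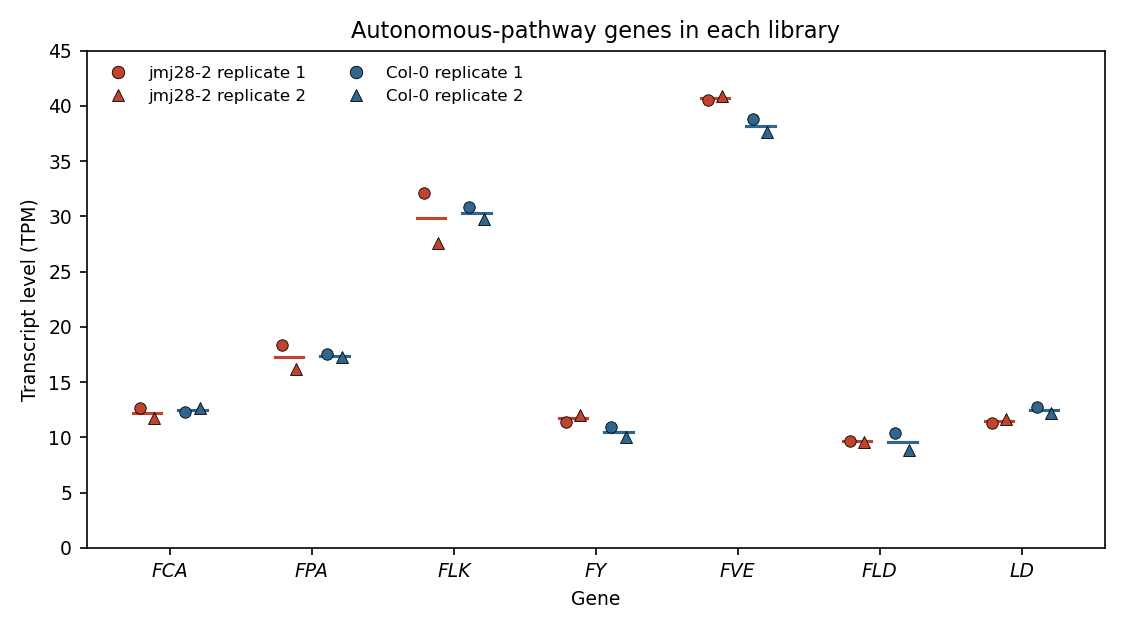
Transcript level in TPM of the 7 autonomous-pathway genes in each library, with jmj28-2 in red to the left of Col-0 in blue, circles for replicate 1, triangles for replicate 2 and a line at the mean of each genotype. FVE, FLK and FPA stand above FCA, LD, FY and FLD in every library.

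The RNA-binding members differed little between genotypes and more between the jmj28-2 libraries. FCA (AT4G16280, chromosome 4), whose protein carries RNA-recognition motifs and a WW domain that binds FY, had 12.68 and 11.72 TPM in jmj28-2 and 12.28 and 12.66 TPM in Col-0. The genotypes overlapped, since jmj28-2 held both the highest and the lowest library. FPA (AT2G43410, chromosome 2), an RNA-recognition-motif protein that controls the choice of polyadenylation site, had 18.36 and 16.17 TPM in jmj28-2, on either side of 17.53 and 17.25 TPM in Col-0. FLK (AT3G04610, chromosome 3), with KH domains, had 32.16 and 27.59 TPM in jmj28-2, again on either side of 30.84 and 29.81 TPM in Col-0.

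Relative to Col-0, the mean level in jmj28-2 was 0.978 times as high for FCA, 0.993 times for FPA and 0.985 times for FLK. Changes were tested on the log2(TPM + 1) scale with limma, using two-sided p-values with a Benjamini-Hochberg adjustment across the whole set of tested genes. The log2 change was -0.03 (SE 0.0836) for FCA, -0.0124 (SE 0.0879) for FPA and -0.0246 (SE 0.0916) for FLK, with limma adjusted p-values of 0.903, 0.963 and 0.927. In each of the 3 genes jmj28-2 replicate 2, the library lowest in root markers, was also the lowest library. For FY, FVE and FLD the lowest library was Col-0 replicate 2, and for LD it was jmj28-2 replicate 1. The part of tissue makeup in this order was not tested. In whole seedlings, fewer cells of a type and less RNA per cell cannot be told apart. The distance between the jmj28-2 libraries was 0.214 log2 units for FLK, 0.173 for FPA and 0.105 for FCA, where the median over all genes tested was 0.119. Between the Col-0 libraries it was 0.0474, 0.022 and 0.0407 for FLK, FPA and FCA, where the median was 0.0954. Without jmj28-2 replicate 2 the direction turned for all 3 genes, to 0.0225 for FCA, 0.0742 for FPA and 0.0823 for FLK. The median log2 change of all genes tested also rose in that setting, to 0.0583 from 0.0277 with every library.

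FY (AT5G13480, chromosome 5), a WD40-repeat protein and the plant counterpart of a yeast polyadenylation factor, was the member with the highest ratio. It had 11.43 and 12.01 TPM in jmj28-2, against 10.98 and 10.07 TPM in Col-0, so both mutant libraries lay above both wild-type libraries. The means were 11.7 ± 0.41 TPM in jmj28-2 and 10.5 ± 0.644 TPM in Col-0 (SD, n = 2 each), a ratio of 1.11. The difference did not pass, at a log2 change of 0.14 (SE 0.0884, limma adjusted p = 0.534).

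The chromatin members did not share a direction. FVE (AT2G19520, chromosome 2, named MSI4 in the table), a WD40-repeat protein that binds histones and works with histone deacetylases, had 40.54 and 40.93 TPM in jmj28-2, against 38.82 and 37.60 TPM in Col-0. The genotypes did not overlap, the ratio was 1.07, and the log2 change of 0.0902 (SE 0.0601) did not pass (limma adjusted p = 0.558). LD (AT4G02560, chromosome 4), the homeodomain protein LUMINIDEPENDENS, was the only member with both jmj28-2 libraries, at 11.34 and 11.64 TPM, below both Col-0 libraries, at 12.73 and 12.19 TPM. Its ratio was 0.922, and the log2 change of -0.11 (SE 0.0794) did not pass either (limma adjusted p = 0.595).

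FLD (AT3G10390, chromosome 3), a relative of the histone H3K4 demethylase LSD1, had 9.67 and 9.62 TPM in jmj28-2, inside the range set by 10.36 and 8.87 TPM in Col-0. The jmj28-2 mean of 9.65 ± 0.0354 TPM and the Col-0 mean of 9.62 ± 1.05 TPM (SD, n = 2 each) gave a ratio of 1.00 and a log2 change of 0.00763 (SE 0.104, limma adjusted p = 0.981). The sign of this change turned when the libraries were rescaled, to -0.0215 with quantile normalization and -0.0227 with median-of-ratios scaling.

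Among the 7 genes, limma called 0 higher and 0 lower, where 15 of all 19764 genes tested, or 0.0759%, were called (0.0405% higher and 0.0354% lower). At an unadjusted p under 0.05 the count was also 0 of 7, against 13.9% of all genes tested (9.5% higher and 4.36% lower). Both jmj28-2 libraries lay above both Col-0 libraries in 2 of the 7 genes (29.0% of all genes tested) and below them in 1 of the 7 (17.6%). The genotypes overlapped in FCA, FPA, FLK and FLD. The median log2 change of the members was -0.0124 and that of all genes 0.0277. In 4 of the 7 genes the difference between the genotype means was smaller than the distance between the libraries of one genotype, the exceptions being FY, FVE and LD. The share of all genes with this relation was not computed. Their median absolute difference of means was 0.113 log2 units, beside median distances of 0.119 between jmj28-2 libraries and 0.0954 between Col-0 libraries.

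The 95% intervals of the ratio of jmj28-2 to Col-0, on the TPM + 1 scale, ran from 0.945 to 1.29 for FY, from 0.957 to 1.18 for FVE and from 0.807 to 1.07 for LD. For FCA, FPA, FLK and FLD the lower bounds lay between 0.836 and 0.849 and the upper bounds between 1.13 and 1.21. With 2 libraries on each side, 0.333 is the smallest two-sided p that an exact permutation test allows. The labels do not say whether replicate libraries stem from independent batches of seedlings, so the p-values cover only differences among these 4 libraries, which may be technical.

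Set among all genes tested, FLD and the RNA-binding members ranked low by size of change. The absolute log2 change was larger than that of FLD in 96.3% of the tested genes, larger than that of FPA in 93.9%, larger than that of FLK in 87.7% and larger than that of FCA in 85.1%. The share was 40.0% for FY, 51.8% for LD and 58.6% for FVE, near the middle of the genes tested.

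Ratios between members within a library do not depend on a factor that scales the whole library, though quantile normalization can change them. FCA and FY, whose proteins bind each other, stood at 1.11 and 0.976 FCA transcripts per FY transcript in jmj28-2, against 1.12 and 1.26 in Col-0. The jmj28-2 ratios were the lower ones, but jmj28-2 replicate 1 and Col-0 replicate 1 differed by less than the libraries of either genotype did. LD per FLD, both required for the chromatin step, stood at 1.17 and 1.21 in jmj28-2, against 1.23 and 1.37 in Col-0, again lower in jmj28-2 with a narrow gap. FPA per FCA overlapped, at 1.45 and 1.38 in jmj28-2 and 1.43 and 1.36 in Col-0. FVE per transcript of HDA6, a histone deacetylase that acts with FVE and FLD, also overlapped, at 1.98 and 2.06 in jmj28-2 and 2.02 and 1.80 in Col-0.

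FVE, FLK and FLD were set beside chosen relatives, and each was more abundant than the relatives compared in every library. Other relatives of the members were not examined. MSI5, the WD40 protein nearest to FVE and partly redundant with it, had 4.32 and 5.72 TPM in jmj28-2 and 5.30 and 5.96 TPM in Col-0. FVE was thus 9.38 and 7.16 times as abundant as MSI5 in jmj28-2, and 7.33 and 6.31 times in Col-0, and the genotypes overlapped. MSI5 itself did not pass (log2 change -0.15, SE 0.154, limma adjusted p = 0.708).

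PEP, a KH-domain relative of FLK that acts against it on FLC, had 19.99 and 20.21 TPM in jmj28-2, against 18.89 and 18.24 TPM in Col-0. The ratio of FLK to PEP was 1.61 and 1.37 in jmj28-2, against 1.63 and 1.63 in Col-0. Both jmj28-2 values were lower, the first by little. HEN4, a KH-domain protein that works with PEP and FLK in floral development, had 9.0 and 8.93 TPM in jmj28-2 and 9.16 and 8.55 TPM in Col-0. Neither PEP nor HEN4 passed (limma adjusted p = 0.541 and 0.951).

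The LSD1-like relatives of FLD lay below its level. LDL1, which acts redundantly with FLD on FLC, had 8.16 and 9.02 TPM in jmj28-2, against 8.15 and 8.07 TPM in Col-0. LDL2 was the lowest of the group, at 1.72 and 1.85 TPM in jmj28-2 and 1.90 and 1.88 TPM in Col-0. LDL3 had 7.39 and 7.48 TPM in jmj28-2, inside the range of 7.06 and 7.64 TPM in Col-0. None of the 3 passed, with limma adjusted p-values between 0.774 and 0.957. LDL3 lies close to FCA on chromosome 4, with 1 gene between them in RefSeq order.

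**Figure D2:**
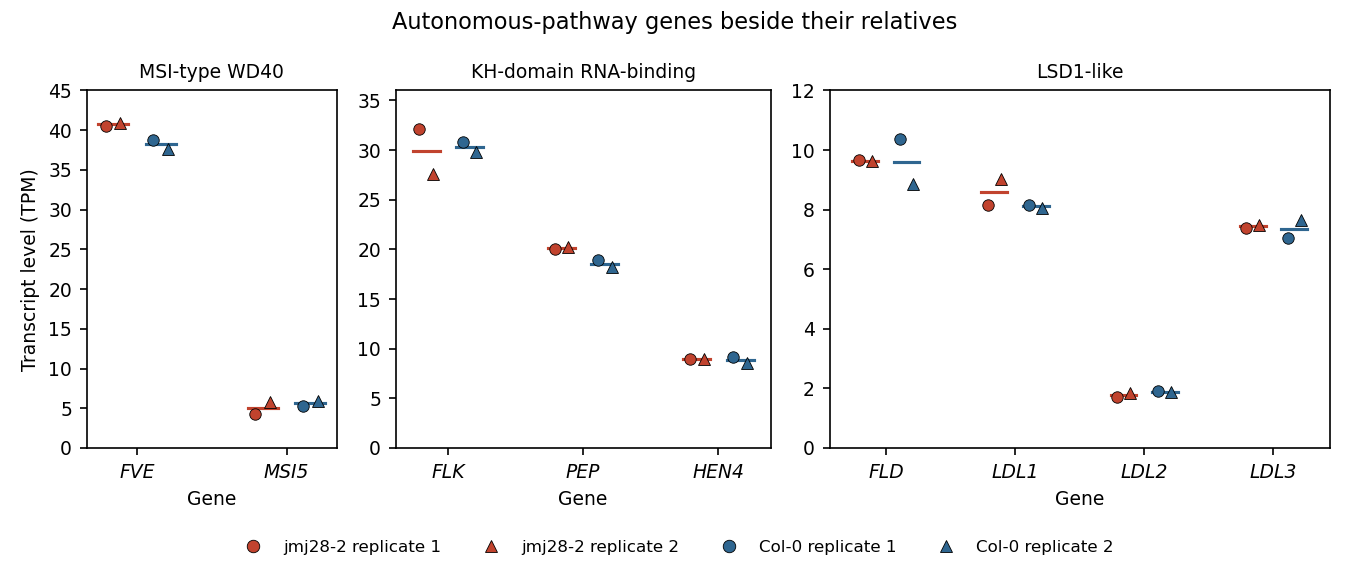
Transcript level in TPM of FVE, FLK and FLD beside their relatives in each library, with jmj28-2 in red to the left of Col-0 in blue, circles for replicate 1, triangles for replicate 2 and a line at each mean. Each of the 3 members lies above the relatives shown in every library, FVE by the widest margin.

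In RefSeq gene spans FPA overlaps ETFQO, an electron-transfer enzyme gene, and FLD overlaps AT3G10405, so reads at the shared ends could be assigned to either gene. ETFQO had 14.62 and 13.81 TPM in jmj28-2 and 13.93 and 14.11 TPM in Col-0 (limma adjusted p = 0.937). AT3G10405 had 30.80 and 31.63 TPM in jmj28-2, against 33.49 and 31.93 TPM in Col-0 (limma adjusted p = 0.694). FPA also overlaps the lncRNA gene AT2G09470, which was listed at 0 in all 4 libraries. The spans of FCA, FLK, FY, FVE and LD overlapped no other gene in that table.

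A list of 20 further genes held 3′-end processing and splicing factors, kinases of transcription, RNA-binding proteins linked to flowering or related to FLK, and a cofactor of FCA. All 20 were tested and 0 passed in either direction, where 0.0759% of all genes tested did. The mean was higher in jmj28-2 for 18 of the 20, against 57.3% of all genes tested. At an unadjusted p under 0.05 the counts were 3 of the 20 higher and 0 lower, where 9.5% of all genes tested were higher and 4.36% lower. The median log2 change was 0.0983, beside 0.0277 for all genes. Both jmj28-2 libraries lay above both Col-0 libraries in 10 of the 20 genes (29.0% of all genes tested) and below them in 0 (17.6%). After rescaling by quantile normalization or by median-of-ratios factors 14 of the 20 were higher, where 48.8% and 49.3% of all genes were. Without jmj28-2 replicate 1 the number was 13, where 50.4% of all genes were higher.

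The smallest p-values in this list belonged to CPSF100, GRP7, CSTF64 and GRP8. CPSF100, a subunit of the cleavage and polyadenylation specificity factor to which FY also belongs, had 12.18 and 12.45 TPM in jmj28-2, against 9.91 and 9.73 TPM in Col-0. The genotypes did not overlap, and the ratio was 1.25. The log2 change of 0.30 (SE 0.0795) did not pass over all genes (limma adjusted p = 0.254). CPSF100 ranked 952 by limma p among all genes tested, and 13.6% of them had a larger absolute change. CSTF64, a subunit of the cleavage stimulation factor needed for early 3′ ends of FLC antisense transcripts, had 8.52 and 9.39 TPM in jmj28-2, against 7.38 and 7.10 TPM in Col-0. Its ratio was 1.24, and it did not pass (log2 change 0.27, SE 0.0969, limma adjusted p = 0.328).

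GRP7, a clock-controlled glycine-rich RNA-binding protein whose loss raises FLC, had 450.29 and 437.25 TPM in jmj28-2, against 403.48 and 398.47 TPM in Col-0. Its paralog GRP8 had 462.35 and 441.78 TPM in jmj28-2, against 403.80 and 419.38 TPM in Col-0. Both genes had ratios near 1.1, at 1.11 and 1.10, and neither passed (limma adjusted p = 0.326 and 0.38). Reads of such similar paralogs are divided between them by estimation.

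The other subunits of the 3′-end machinery did not all show the pattern of CPSF100, and they were named after their values were seen. CPSF73-I, the endonuclease subunit, averaged 18.9 ± 0.375 TPM in jmj28-2 and 17.0 ± 0.87 TPM in Col-0, and CPSF160 averaged 10.7 ± 0.658 TPM in jmj28-2 and 9.38 ± 0.403 TPM in Col-0 (SD, n = 2 each). Their genotypes did not overlap. CSTF77, CPSF30, FIPS5 and PCFS4, a factor that promotes polyadenylation of FCA transcripts, had ratios between 0.99 and 1.02 with overlapping genotypes. FLXL2, a coiled-coil protein that promotes nuclear condensates of FCA, had 9.95 and 10.06 TPM in jmj28-2, against 8.92 and 8.60 TPM in Col-0. It missed the threshold as well (limma adjusted p = 0.438).

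Of 11 chromatin partners, 0 passed in either direction, where 0.0759% of all genes tested did. The mean in jmj28-2 was higher for 7 and lower for 4, where 57.3% of all genes tested were higher. The median log2 change was 0.0155, beside 0.0277 for all genes. At an unadjusted limma p under 0.05, 2 of the 11 were higher and 0 lower (9.5% and 4.36% of all genes tested). Both jmj28-2 libraries lay above both Col-0 libraries in 4 of the 11 (29.0% of all genes tested) and below them in 1 (17.6%). With both rescalings 5 were higher and 6 lower, where the share of all genes higher was 48.8% with quantile normalization and 49.3% with median-of-ratios scaling. The arginine methyltransferase genes PRMT10 and PRMT5, whose mutants flower late with raised FLC, had the smallest p-values. PRMT10 had 29.48 and 29.17 TPM in jmj28-2, against 25.30 and 25.17 TPM in Col-0, a ratio of 1.16 (log2 change 0.21, SE 0.0627, limma adjusted p = 0.281). PRMT5 had 20.07 and 18.58 TPM in jmj28-2, against 15.77 and 16.33 TPM in Col-0, a ratio of 1.20 (log2 change 0.25, SE 0.0778, limma adjusted p = 0.286).

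APRF1, a WD40 protein that acts with FLD on FLC, had 7.28 and 8.06 TPM in jmj28-2, against 6.46 and 6.34 TPM in Col-0, a ratio of 1.20 that did not pass (limma adjusted p = 0.399). The other partners of FLD and FVE, named after their values were seen, lay closer to equality. HDA6 had 20.50 and 19.91 TPM in jmj28-2, inside the range of 19.23 and 20.89 TPM in Col-0. ASHH1, the SET-domain protein also called SDG26 that joins FLD in a complex, had 9.60 and 11.45 TPM in jmj28-2, on either side of 10.47 and 10.98 TPM in Col-0. REF6, an H3K27 demethylase whose loss raises FLC, had 12.03 and 11.58 TPM in jmj28-2 and 11.79 and 12.44 TPM in Col-0.

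**Figure D3:**
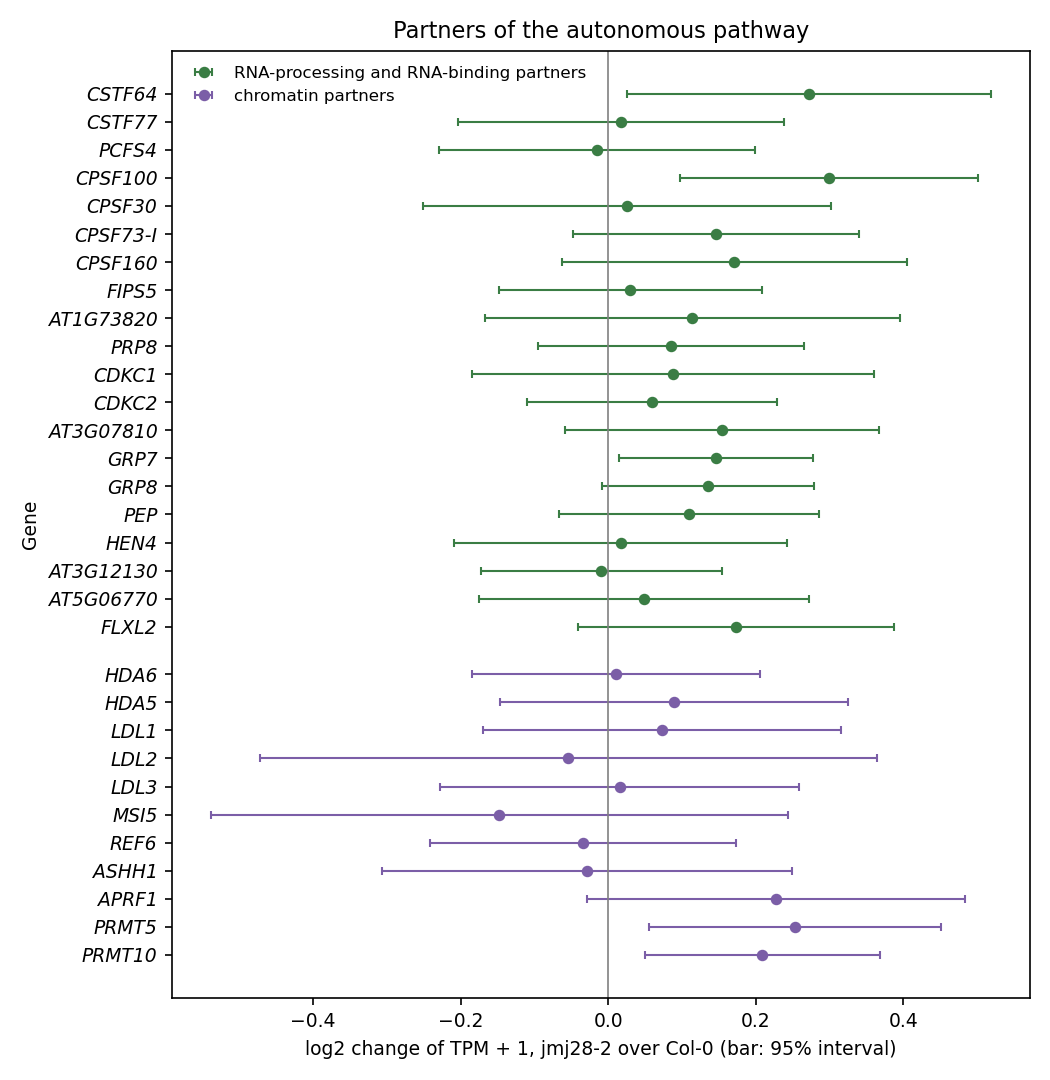
log2 change of TPM + 1 in jmj28-2 over Col-0 with its 95% limma interval for 20 RNA-processing and RNA-binding partners (green) and 11 chromatin partners (purple). None of them passed after adjustment over all genes, and CPSF100 and CSTF64 lie furthest to the right.

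The gene on which the pathway acts differed far more than its regulators did. FLC (AT5G10140) had 8.97 and 9.12 TPM in jmj28-2, against 2.68 and 3.07 TPM in Col-0, a ratio of 3.15, and with a log2 change of 1.38 (SE 0.113) it missed the threshold (limma adjusted p = 0.065). It passed with robust fitting (limma adjusted p = 0.0234, range over its alternatives 0.0234 to 0.268). The 95% interval of FLC, from 2.13 to 3.17 on the TPM + 1 scale, lay above the highest upper bound of any member, 1.29 for FY. Within a library, FVE was 4.52 and 4.49 times as abundant as FLC in jmj28-2, against 14.5 and 12.3 times in Col-0. FCA was 1.41 and 1.29 times as abundant as FLC in jmj28-2, against 4.58 and 4.12 times in Col-0.

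AT5G01675, an lncRNA gene whose RefSeq span overlaps FLC and which was chosen after its values were seen, had 0.00 and 1.13 TPM in jmj28-2 and 0.86 and 0.00 TPM in Col-0. It was listed at 0 in 1 library of each genotype and lay under the filter of a mean of 1 TPM. No source used here states whether counting was strand-specific, so reads of FLC and of an antisense transcript cannot be told apart.

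Of the 8 genes of the FLC clade and its outputs, 7 were tested and 0 passed, where 0.0759% of all genes tested did. Both jmj28-2 libraries lay above both Col-0 libraries in 3 of the 7 (29.0% of all genes tested) and below them in 2 (17.6%). At an unadjusted limma p under 0.05 the counts were 2 higher and 2 lower, where 9.5% and 4.36% of all genes tested were. SOC1, a promoter of flowering and direct target of FLC, had 22.29 and 18.69 TPM in jmj28-2, against 30.16 and 34.10 TPM in Col-0, a ratio of 0.638 (limma adjusted p = 0.195). MAF3 had 14.22 and 14.72 TPM in jmj28-2, against 18.00 and 20.18 TPM in Col-0, a ratio of 0.758 (limma adjusted p = 0.232). MAF4 had 9.56 and 9.71 TPM in jmj28-2, against 8.08 and 6.45 TPM in Col-0, a ratio of 1.33 (limma adjusted p = 0.307). MAF3 and MAF4 are MADS-box relatives of FLC that sit side by side on chromosome 5, and their libraries separated by genotype in opposite directions. MAF5 had 15.38 and 20.03 TPM in jmj28-2, against 14.62 and 10.96 TPM in Col-0, a ratio of 1.38 (limma adjusted p = 0.372). FLM and MAF2 had ratios of 0.997 and 0.977, with overlapping genotypes. The changes of MAF5, FLM and MAF2 were not followed gene by gene under the alternatives. FT lay under the filter, at 0.52 and 0.65 TPM in jmj28-2 and 1.58 and 0.59 TPM in Col-0.

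**Figure D4:**
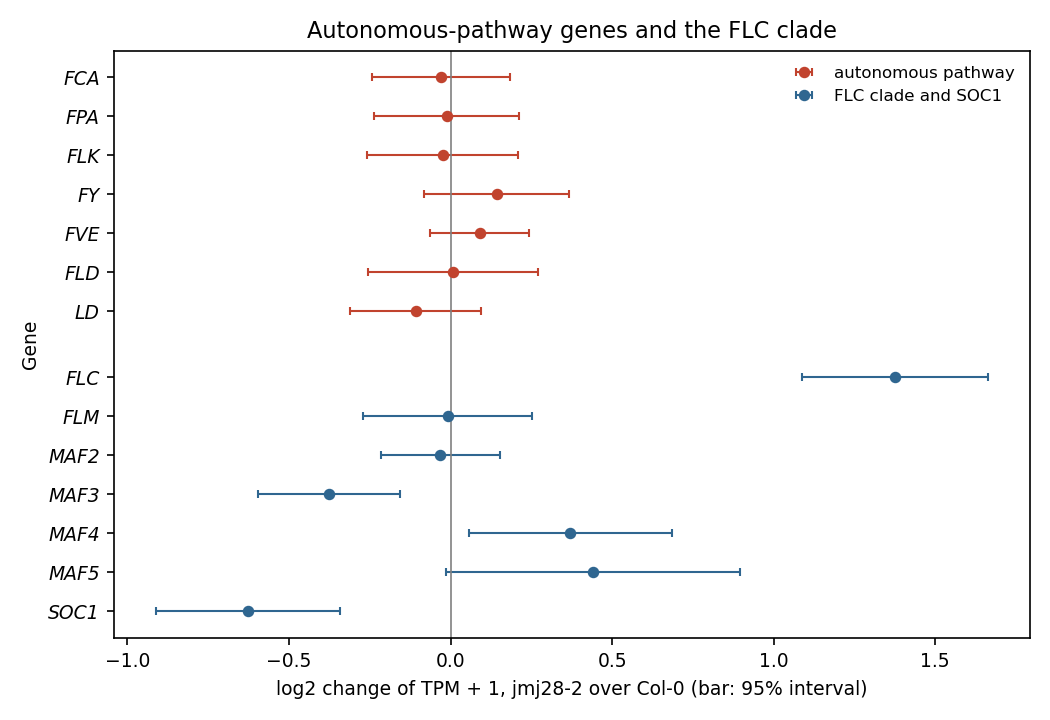
log2 change of TPM + 1 in jmj28-2 over Col-0 with its 95% limma interval for the 7 autonomous-pathway genes (red) and for FLC, its clade and SOC1 (blue). All 7 intervals of the pathway genes include 0, whereas FLC lies at 1.38.

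The course of the members over the 4 libraries was compared as the Euclidean distance between log2(TPM + 1) profiles, each centred on its own mean. FPA and FLK were each other's nearest member, at 0.0361 log2 units, and FPA was the nearest to FCA at 0.0678. FY and FVE were each other's nearest at 0.0809. FLD was nearest to FVE at 0.14 and LD nearest to FCA at 0.144, both farther than the pairs above. These distances describe 4 libraries. Distances from the mean profile of the members are another measure, and for all other tested genes their median was 0.201 and their 1st percentile 0.038. The mean profile was nearly flat, from -0.0367 to 0.0322 log2 units, so genes that varied little lie near it. The 3 genes outside the pathway nearest to that mean profile were AT1G51080, LSM3A and AT5G28040, at 0.00326, 0.00437 and 0.00819. LSM3A, a subunit of the Sm-like ring that binds RNA ends, had 32.35 and 31.04 TPM in jmj28-2 and 32.31 and 30.77 TPM in Col-0.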

How the data were processed

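The authors deposited a single table of values by gene and library, given to 2 decimals. It is labelled FPKM, but its columns sum to between 998943 and 999014, so the deposited values were read as TPM, which keep no sequencing depth and share a fixed total. The submitters' processing notes name TopHat, RSEM and edgeR with build TAIR10, without versions. Genotypes and replicate numbers came from the labels, and 0 sample columns stayed unmatched.

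Genes with a mean of at least 1 TPM, 19764 in all, were fitted as log2(TPM + 1) with limma 3.58.1 under R 4.3.3. Genotype was the single term, and variances were moderated with a trend on mean level (2 residual and 3.18 prior degrees of freedom). Calls were made at a Benjamini-Hochberg adjusted p under 0.05. The pseudocount of 1 understates changes of low genes. The fit was tested on simulated data. Figures used matplotlib 3.10.9.

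The members, lists and alternatives were chosen with earlier results of these data known. Named genes are the members, JMJ28, FLC, the 4 smallest p-values of each list, the relatives of FVE, FLK and FLD and the genes nearest in profile. Other named genes were chosen after their values were seen, among them those that overlap a member in RefSeq. Names and neighbours came from the table and from RefSeq genes on TAIR10.1, which matched 32548 of 32833 identifiers. No coordinates are given, since TAIR10.1 is not the build that the submitters name.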

Additional observations from a re-analysis of the deposited data

How the results depend on the processing

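Under the 13 alternatives run, 0 of the 7 members was called in either direction, and the lowest adjusted p of a member was 0.473 (limma). Of 91 member values, 85 kept their direction and 6 turned. Changing the filter, dropping the trend, robust fitting and the replicate block leave a member's log2 change as it is. The values under those settings could not turn, and they say nothing about stability of direction. FLD turned to -0.0215 with quantile normalization and -0.0227 with median-of-ratios scaling. Leaving out 1 library gave -0.0825 to 0.0225 for FCA, -0.099 to 0.0742 for FPA, -0.132 to 0.0823 for FLK and -0.0938 to 0.109 for FLD, and these values changed sign within those ranges. The median log2 change of all genes tested was 0.0277 as reported, -0.00467 with quantile normalization and -0.00301 with median-of-ratios scaling. Without 1 library that median ran from 0.00174 to 0.0583. The cause of the turns was not tested. The bounds on a member's ratio widened to 0.728 (LD) and 1.45 (FY) when 1 library was left out, where the lone library of a genotype is assumed to vary like the others.

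Among the 30 other named genes with a tested change, quantile normalization and median-of-ratios scaling turned HEN4 to -0.017 and -0.0134, LDL3 to -0.0181 and -0.014, CSTF77 to -0.0177 and -0.0137, CPSF30 to -0.0117 and -0.00517, FIPS5 to -0.00818 and -0.0021, HDA6 to -0.0267 and -0.021, and ETFQO to -0.0243 and -0.0132. Without 1 library the sign varied for HEN4 (-0.028 to 0.0614), LDL3 (-0.0347 to 0.0656), MSI5 (-0.316 to 0.0212), CSTF77 (-0.0509 to 0.0859), PCFS4 (-0.0696 to 0.0396), CPSF30 (-0.0813 to 0.132), FIPS5 (-0.00886 to 0.069), HDA6 (-0.046 to 0.0678), REF6 (-0.0701 to 0.00147), ASHH1 (-0.145 to 0.0869) and ETFQO (-0.0203 to 0.0565). In the FLC clade, 1 gene (FLC) was called with robust fitting.

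Over all genes, 8 were called higher and 7 lower as reported. Robust fitting called 29 higher and 14 lower, and a pseudocount of 0.01 called 5 and 3. Dropping the filter left 4 higher, dropping the trend left 3 higher, and raising the filter to 5 TPM left 4 lower. Without 1 library the counts ran from 0 to 10 higher and from 0 to 7 lower, and both were 0 without Col-0 replicate 2. With the replicate number as a block the counts were 12 and 6, and member values kept their size, with limma adjusted p-values from 0.617 (FY) to 0.983 (FLD). Same-numbered libraries did not deviate together (correlation across genes 0.0162). With 2 libraries per genotype this cannot settle whether the numbers pair the samples, which the labels do not state. Depth is unknown, so no counting limit can be given.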
